A study of Homo sapiens with 8 samples.

Results

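AGO2-bound RNA was compared between A431 cells that had received miR-634 and cells that had received the control miR-NC. The comparison used the 2 arrays labelled miR-634 RIP and the 2 arrays labelled miR-NC RIP, which are 4 of the 8 arrays of the study. Genes were taken from probes that the scanner software called well above background on all 4 RIP arrays, so that 10973 of 22435 genes with a probe (48.9%) were measured, and the input arrays had no part in this choice. A431 is a human cutaneous squamous cell carcinoma line. For RIP-chip, RNA bound to AGO2 was precipitated with an anti-AGO2 antibody and hybridized to one-color Agilent arrays, beside input arrays of cells given the same miRNAs. In the miR-NC groups the cells received miR-NC at 10 nM, and in the miR-634 groups miR-634 at 10 nM, each for 24 h, and the labels name no other difference between the groups of RIP arrays. The input arrays are total RNA in the study's methods, whereas their labels name a normal rabbit IgG antibody, and they are used here only as a second readout of genes that the RIP arrays had chosen. The methods state that experiments were done in duplicate, but not whether each duplicate was a transfection of its own, so that the p-values given here measure the spread between arrays, which may be technical.

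AGO2 is the Argonaute protein that carries mature miRNAs in the RNA-induced silencing complex. The guide miRNA pairs, mainly through its seed, with sites in target mRNAs, which are then held on AGO2, translated less and degraded. A transfected miRNA mimic competes with the miRNAs of the cell for a limited pool of Argonaute, and transcripts can therefore be both gained on and lost from AGO2 after transfection. The transfected miRNA and members of 4 cellular miRNA families, whose target lists are described further on, are shown here by their mature sequences, read 5′ to 3′ and credited to RefSeq (GRCh38.p14), with the seed (bases 2 to 8) in capitals.
hsa-miR-634: aACCAGCAccccaacuuuggac
hsa-let-7a-5p: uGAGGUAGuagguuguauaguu
hsa-miR-21-5p: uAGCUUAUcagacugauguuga
hsa-miR-17-5p: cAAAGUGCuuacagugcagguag
hsa-miR-200b-3p: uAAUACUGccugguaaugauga
No 2 of these 5 sequences share a seed. In the same table, 0 other mature miRNAs have the seed of miR-634, whereas 10 share that of let-7a, 7 that of miR-17, 2 that of miR-200b and 1 that of miR-21. The mature miR-634 lies on chromosome 17, from 66787132 to 66787153 on the plus strand, and a site that pairs with its whole seed reads UGCUGGU. Transcript sequences were not used here, so that the sites of single genes were not searched.

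The RIP arrays carried the RNA of epithelial cells. All 12 epithelial markers examined, among them the keratins KRT5, KRT14 and KRT6A, the epithelial transcription factor TP63 and the desmosomal plaque protein DSP, were well above background on all 4 RIP arrays. The markers of immune cells (0 of 3 with a probe), fibroblasts (0 of 4) and melanocytes (0 of 3) were not, and of the endothelial markers VWF and CDH5 were, while PECAM1 was not. The scanner software called 33.6% and 34.5% of the spots of the miR-NC RIP arrays well above background, and 40.0% of those of each miR-634 array. Duplicates lay close together, with a median SD of 0.06 per gene in each group (n = 2 arrays) on the log2 scale and a Pearson r over genes (which do not count as replicates) of 0.996 in the miR-NC RIP and 0.997 in the miR-634 RIP. A single slide and scan held the 8 arrays. Its row 2 held the RIP arrays, those of miR-NC at columns 1 and 2 and those of miR-634 at columns 3 and 4, so that position and treatment cannot be told apart.

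The amount of most AGO2-bound transcripts differed between the miR-634 and the miR-NC arrays. Of the 10973 genes, 3141 (28.6%) rose and 4679 (42.6%) fell at an adjusted p under 0.05 by limma, together 71.3%, and 3153 (28.7%) did not pass. The changes were unequal in size. Gains of at least 2-fold were called for 1252 genes (11.4%) and losses of at least 2-fold for 847 (7.72%), while 292 genes were gained and 83 lost at least 4-fold, and 37 were gained and 12 lost at least 8-fold. The rises thus reached further than the falls, with log2 changes from -4.32 to 5.29 and 5th and 95th percentiles of -1.15 and 1.62. The miR-634 arrays did not overlap the miR-NC arrays for 9510 genes (86.7%). The median standard error of a log2 change was 0.08. For the 190 genes whose change passed and is given here, the standard error ranged from 0.06 to 0.41 and the adjusted p from 0.000125 to 0.0227. With 2 arrays against 2, an exact permutation test of a single gene cannot go below p = 0.333, and every adjusted p given here is from limma over all measured genes.

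The balance of gains and losses depends on how the arrays are scaled. Levels are given as log2 intensity relative to the 75th percentile of the array over the 16834 probes with a signal well above background in the 4 RIP samples, and on this scale the median log2 change of all genes was -0.18. Genes that rose made up 40.2% of the called genes, compared with 53.2% when the percentile was taken over all probes or in the authors' processed values, 29.4% with normexp background correction and 24.7% without a filter on dim probes. On the miR-NC RIP arrays the 8 spike-in probes lay 3.45 and 3.54 above the percentile, and on the miR-634 RIP arrays 2.61 and 2.65. Scaling on these probes moved the median change to 0.68, so that 8107 genes rose and 509 fell (94.1% of the called genes rose). Whether equal amounts of spike-in RNA were added is not given in the sources used here. Falls smaller in size than 0.86 turn positive with spike-in scaling, not all of them passing, and some larger falls no longer pass, and a change of any gene or list is therefore read against the median of all genes. Of the 1252 gains, 1226 kept their direction at an adjusted p under 0.05 in all 5 alternatives compared (the percentile over all probes, the median, quantiles, spike-in and normexp), and 867 stayed at least 2-fold. Of the 847 losses, 509 kept their direction and 104 stayed at least 2-fold. Of all 3141 rises 2538 kept their direction in these 5 alternatives, and of all 4679 falls only the same 509.

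**Figure D1:**
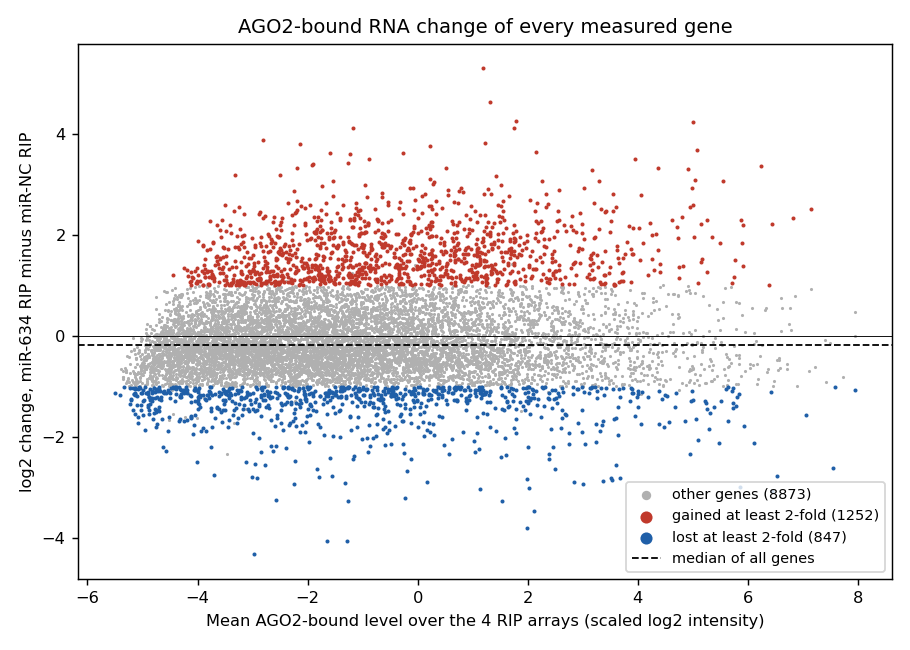
AGO2-bound log2 change (miR-634 RIP minus miR-NC RIP) of each of the 10973 measured genes against its mean scaled log2 intensity over the 4 RIP arrays. Red points are the 1252 genes gained at least 2-fold, blue points the 847 genes lost at least 2-fold, and the dashed line is the median of all genes at -0.18.

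The largest rises belonged to genes of unrelated functions. MED30, a subunit of the Mediator complex that links transcription factors to RNA polymerase II, lay at -1.42 and -1.48 on the miR-NC arrays and 3.90 and 3.78 on the miR-634 arrays. It went from the lower part of the range of both miR-NC arrays to well above the percentile on both miR-634 arrays, 39.2-fold higher (log2 change 5.29, standard error 0.07, adjusted p = 0.000125). TMEM18, a membrane protein of the nuclear envelope, averaged -0.99 over the miR-NC arrays and 3.63 over the miR-634 arrays, a rise of 4.62 ± 0.06 (standard error). A dimmer TMEM18 probe gave 2.59. UFC1, the enzyme that conjugates the ubiquitin-like modifier UFM1, was at -0.29 and -0.40 on the miR-NC arrays and 3.92 and 3.89 on the miR-634 arrays (log2 change 4.25), and ATP6V0B, a membrane subunit of the proton pump of lysosomes, was at 2.82 and 2.95 on the miR-NC arrays and 7.12 and 7.13 on the miR-634 arrays (18.9-fold). In each of these 4 genes the arrays of a group differed by far less than the groups. FKBP3, a nuclear prolyl isomerase, rose by 4.11, from -0.33 and -0.29 to 3.82 and 3.79. PRADC1, a secreted protein with a protease-associated domain, rose by 4.10, from -3.34 and -3.13 to 0.87 and 0.87. The 12 largest rises also held ANKRD37, an ankyrin repeat gene induced by hypoxia (3.80), DYNLT2B, a light chain of dynein (3.76), NMB, which encodes the peptide neuromedin B (3.68), and REXO2, an exonuclease that degrades short RNA in mitochondria (3.65). A pair of long noncoding RNAs completed them, MAN1B1-DT (3.87) and HOXC13-AS (3.81). With normexp background correction the rises of MAN1B1-DT (2.13), ANKRD37 (2.73) and PRADC1 (3.35) were smaller. By the rule that chose them, the groups did not overlap for any of the 12 genes, although the miR-NC arrays of HOXC13-AS were apart, at -0.26 and -1.12.

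In the other direction, the AGO2-bound RNA of LYRM1 fell most. LYRM1, a mitochondrial protein of the LYR motif family, lay at -0.79 and -0.85 on the miR-NC arrays and -5.22 and -5.05 on the miR-634 arrays, 20.0-fold lower (log2 change -4.32, standard error 0.08, adjusted p = 0.000125). Both miR-NC arrays were thus far above both miR-634 arrays. SPANXC and SPANXB1, proteins of the sperm nucleus that many tumors express, fell by 4.05 each, and since the genes of this family are near copies a probe can also read another member. LSM3, a subunit of the LSM ring that binds U6 RNA in splicing and decapped mRNA in decay, was at 3.83 and 3.88 on the miR-NC arrays and 0.35 and 0.44 on the miR-634 arrays, a change of -3.46. TOE1, a deadenylase of small nuclear RNAs, was at 0.38 and 0.36 on the miR-NC arrays and -2.84 and -2.94 on the miR-634 arrays, a change of -3.26. RANGRF, which binds the GTPase RAN, was at 3.22 and 3.12 on the miR-NC arrays and -0.10 and -0.10 on the miR-634 arrays, a change of -3.27. For these 3 genes, too, the groups were separate by several times the gap between duplicates. The rule that chose the largest falls required groups without overlap. The remaining genes were the histone genes H3C1 (-3.80) and H3C6 (-3.02), the zinc finger gene ZNF226 (-3.21, and -1.63 on another probe), the noncoding CCDC183-AS1 (-3.23), and RPL37A (-3.06) and MRPS14 (-3.03), proteins of the cytosolic and of the mitochondrial ribosome. All 12 falls were past 8-fold and kept their direction with spike-in scaling, and with normexp those of LYRM1 (-3.11) and CCDC183-AS1 (-2.42) were smaller.

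**Figure D2:**
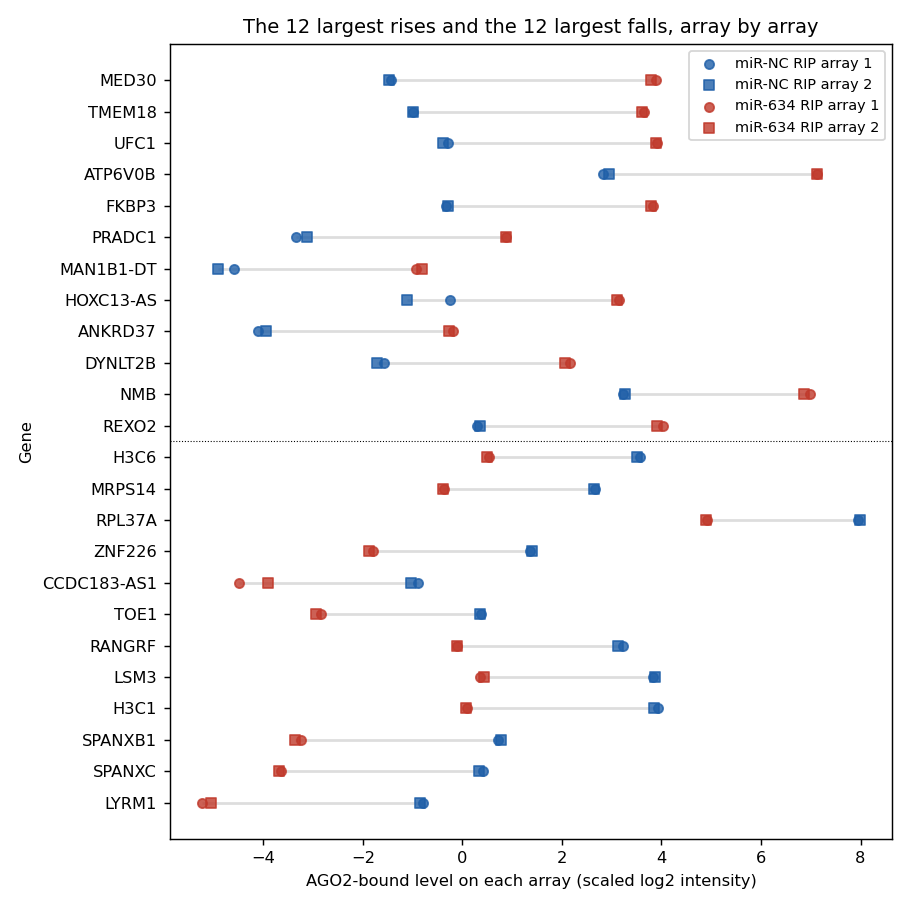
Scaled log2 level of the 12 genes with the largest rise (upper block) and the 12 with the largest fall (lower block) on each miR-NC RIP array (blue) and each miR-634 RIP array (red). The groups overlap for none of these 24 genes, by the rule that chose them, and the duplicates of HOXC13-AS and CCDC183-AS1 lie farthest apart.

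Most genes known as miR-634 targets rose on AGO2. Of 8 such genes 7 were measured, of which 6 rose, 0 fell and 1 did not pass. Over all genes 28.6% rose and 42.6% fell. The median change of these targets was 0.97, beside -0.18 for all genes. NFE2L2, which encodes the antioxidant transcription factor NRF2, was not measured because its probe was not well above background on the RIP arrays. SLC1A5, the glutamine transporter ASCT2 of the plasma membrane, lay at -0.78 and -0.95 on the miR-NC arrays and 1.48 and 1.62 on the miR-634 arrays, a rise of 2.42 ± 0.09 (standard error). APIP, which takes part in methionine salvage and inhibits APAF1-dependent apoptosis, lay at -1.99 and -2.11 on the miR-NC arrays and 0.04 and -0.06 on the miR-634 arrays, a rise of 2.04 ± 0.08. BIRC5, or survivin, an apoptosis inhibitor that also acts in mitosis, was at 2.43 and 2.45 on the miR-NC arrays and 3.85 and 3.82 on the miR-634 arrays, a rise of 1.40 ± 0.06. These 3 genes were gained at least 2-fold, as were 11.4% of all genes. Their groups did not overlap, which holds for 86.7% of all genes. SLC1A5 was picked in the study from these same arrays together with a list of lower proteins, so that its rise follows in part from how it was chosen. The study then tested it as a target by RIP-PCR, a reporter assay of its 3′ UTR and western blots. Of the other 6 measured targets 5 rose. TFAM, the factor that packs and transcribes mitochondrial DNA, was at 2.22 and 2.03 on the miR-NC arrays and 3.16 and 3.03 on the miR-634 arrays, a rise of 0.97 ± 0.10. LAMP2, a glycoprotein of the lysosomal membrane, was at 0.62 and 0.04 on the miR-NC arrays and 1.14 and 1.16 on the miR-634 arrays, a rise of 0.82 ± 0.21 (adjusted p = 0.0227). Its miR-NC arrays were apart and its probes disagreed, with changes from -0.25 to 0.87. XIAP, a direct inhibitor of caspases, was at -1.89 and -1.82 on the miR-NC arrays and -1.58 and -1.57 on the miR-634 arrays, the smallest rise that passed (0.28 ± 0.06). OPA1, the GTPase that fuses the inner mitochondrial membrane, lay at -2.57 and -2.32 on the miR-NC arrays and -2.30 and -1.96 on the miR-634 arrays, and its change of 0.31 ± 0.15 did not pass (adjusted p = 0.133), nor did that of another probe (-0.29). In the input, where 17.7% of genes rose and 16.4% fell, all 7 measured targets fell, with log2 changes of -1.12 for APIP, -0.73 for OPA1, -0.61 for TFAM and -0.39 for SLC1A5. The 6 targets that rose on AGO2 thus fell in the input. The calls of LAMP2 and XIAP were lost without either miR-634 array, and that of XIAP also without the miR-NC array numbered 1 and with normexp (0.12). OPA1 passed with spike-in scaling (1.18) and with the percentile over all probes (0.49).

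**Figure D3:**
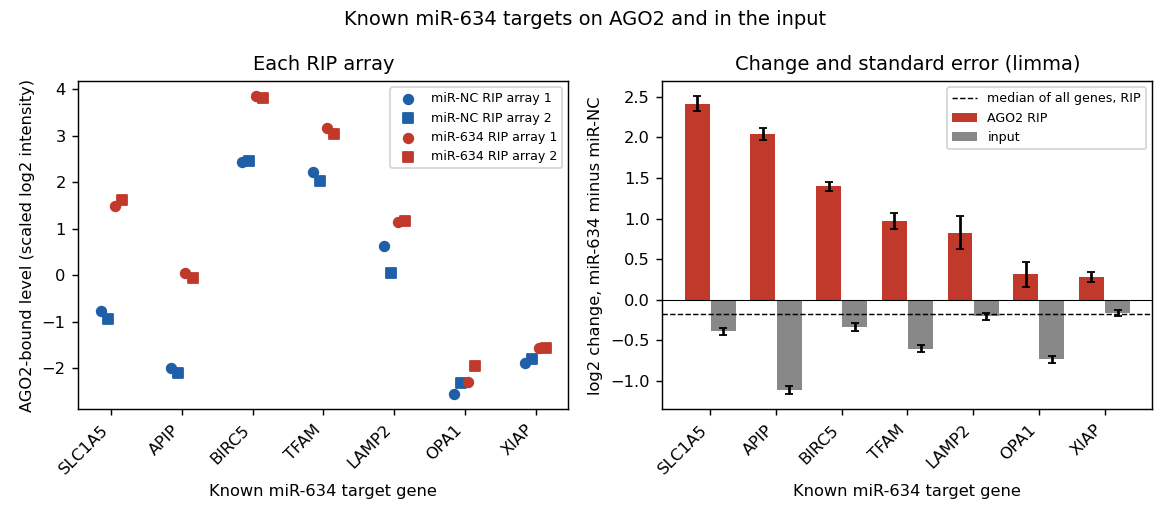
The 7 measured miR-634 targets on each RIP array (left, scaled log2 intensity) and their log2 change on AGO2 and in the input (right, bars from 0 with limma standard errors). The AGO2 bars are above 0 and the input bars below 0 for all 7 genes, and the AGO2 change of OPA1 (0.31) did not pass the test.

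Genes of cell death moved in both directions with the scaling used here, and only upward with spike-in scaling. Of the inhibitors of apoptosis, caspases and their partners, 9 of 15 measured genes (of 18 listed) rose and 6 fell, with a median of 0.32 (10 rises and 0 falls with spike-in scaling; 28.6% rises and 42.6% falls over all genes with the scaling used here). BIRC2, a ubiquitin ligase that restrains cell death downstream of the TNF receptor, rose by 1.84 (1.03 with normexp), from -3.66 and -3.52 to -1.77 and -1.73. DIABLO, the mitochondrial protein that releases caspases from XIAP, and the initiator caspase gene CASP10 fell on their brightest probes (-1.11 and -1.08), but another probe of each rose, so that their direction is uncertain. In the BCL2 family, 9 of 19 measured genes (of 20 listed) rose and 8 fell (median 0.06; 14 rises and 0 falls with spike-in scaling). The proapoptotic effector relative BOK rose by 1.95 and the antiapoptotic BCL2L1, which encodes BCL-XL, by 1.26 (0.62 with normexp), while BCL2L11, which encodes the BH3-only protein BIM, fell (-1.06; -0.19, not passing, with spike-in scaling). The stress genes linked to p53 gave 3 rises and 8 falls among the 19 measured of 24 listed genes, a median of -0.08, and 16 rises and 0 falls with spike-in scaling. Among them GADD45A, which acts in growth arrest after DNA damage, was gained with a log2 change of 2.92 (from -0.73 and -0.60 to 2.19 and 2.32), and the death receptor gene FAS fell (-1.04), a call that was lost without either miR-634 array and with spike-in scaling (-0.18).

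Glutamine metabolism was among the lists with the largest share of gains. Of its 18 measured genes, 12 rose and 2 fell, 8 were gained at least 2-fold and 0 lost, and the median change was 0.92, compared with 28.6% rises, 11.4% gains and a median of -0.18 over all genes. GOT1, the cytosolic aspartate aminotransferase, lay at -0.20 and -0.14 on the miR-NC arrays and 2.67 and 2.78 on the miR-634 arrays, a rise of 2.90 ± 0.07 (standard error). GFPT1, which passes the amide of glutamine to fructose 6-phosphate for hexosamine synthesis, lay at -0.87 and -0.81 on the miR-NC arrays and 1.21 and 1.17 on the miR-634 arrays, a rise of 2.03 ± 0.06. PSAT1, an aminotransferase of serine synthesis, lay at -0.18 and -0.11 on the miR-NC arrays and 1.22 and 1.75 on the miR-634 arrays, a rise of 1.63 ± 0.19. The groups were separate for these 3 genes, as for 86.7% of all genes, and the miR-634 arrays of PSAT1 were apart. The 2 falls, of the mitochondrial aminotransferase GOT2 (-0.47) and of the CTP synthase CTPS2 (-0.51), turned into rises with spike-in scaling, under which all 18 genes rose, and another probe of CTPS2 did not pass (0.04). Plasma membrane transporters of amino acids gave 9 rises and 2 falls among the 13 measured of 25 listed genes (median 0.31; 12 rises and 0 falls with spike-in scaling). Beside SLC1A5, the exchanger of neutral amino acids SLC7A8 rose by 2.03 (1.42 with normexp) and the glutamine transporter SLC38A5 by 1.44, whereas SLC6A6, the taurine transporter, fell (-0.99; -0.13, not passing, with spike-in scaling, and -0.01, not passing, on another probe). The aminoacyl-tRNA synthetases, which charge tRNAs, gave 7 rises and 6 falls among the 19 measured of 20 listed genes (median 0.03; 17 rises and 1 fall with spike-in scaling), and the lowest change was -1.91, of GARS1. In the integrated stress response, 8 of 18 measured genes (of 19 listed) rose and 2 fell (median 0.14; 16 rises and 0 falls with spike-in scaling). DDIT3, or CHOP, rose by 1.63 and its target TRIB3 by 1.72, while CEBPB fell (-1.02; -0.16, not passing, with spike-in scaling).

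Genes of carbon metabolism moved in both directions, as did all genes (28.6% rises and 42.6% falls). Few falls of these lists were left with spike-in scaling. Genes of glucose transport and glycolysis gave 11 rises and 6 falls among the 23 measured of 25 listed genes, with 4 gains (17.4%, beside 11.4% over all genes) and 0 losses of at least 2-fold and a median of 0.22 (22 rises and 0 falls with spike-in scaling). ADPGK, an ADP-dependent glucokinase, rose by 1.84, the glucose transporter gene SLC2A1 by 1.45 and the lactate dehydrogenase subunit LDHA by 1.38. The groups were separate for each of them, as for 86.7% of all genes. SLC2A1 lay at 1.54 and 1.52 on the miR-NC arrays and 3.04 and 2.93 on the miR-634 arrays. Among hypoxia-inducible genes, 10 of 23 measured genes (of 24 listed) rose and 6 fell (median 0.14; 20 rises and 0 falls with spike-in scaling), with P4HA2, a prolyl hydroxylase of collagen, at 1.75. The tricarboxylic acid cycle with pyruvate dehydrogenase gave 8 rises and 10 falls among the 22 measured of 24 listed genes (median -0.33; 17 rises and 1 fall with spike-in scaling). Rises included SUCLG1 and SUCLA2, subunits of succinyl-CoA ligase, at 3.07 and 1.76, and CS, citrate synthase, at 1.36, while MDH2, mitochondrial malate dehydrogenase, fell (-1.12). SUCLG1 lay at 0.78 and 0.67 on the miR-NC arrays and 3.81 and 3.77 on the miR-634 arrays and MDH2 averaged 3.11 and 1.99 over the same arrays, so that genes of the same cycle were separated in opposite directions. The pentose phosphate pathway gave 3 rises and 5 falls among all 9 genes (median -0.33; 6 rises and 1 fall with spike-in scaling), with PGLS and PGD, enzymes of its oxidative branch, at 1.91 and 1.77 and the epimerase RPE at -1.75. Of NRF2-linked and antioxidant genes, 12 of 24 measured genes (of 26 listed) rose and 9 fell (median 0.20; 19 rises and 1 fall with spike-in scaling). SRXN1, which repairs oxidized peroxiredoxins, rose by 2.69, and FTH1, the ferritin heavy chain that stores iron, fell (-1.56).

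Mitochondrial lists held both gains and losses, and their calls are read beside 28.6% rises and 42.6% falls over all genes. Oxidative phosphorylation subunits gave 20 rises and 41 falls among all 76 genes, with a median of -0.34 (49 rises and 5 falls with spike-in scaling), and 9 were gained (11.8%) and 7 lost (9.21%) at least 2-fold, near the 11.4% and 7.72% of all genes. ATP5F1B, the catalytic beta subunit of ATP synthase, lay at 2.19 and 2.22 on the miR-NC arrays and 5.68 and 5.73 on the miR-634 arrays, a rise of 3.50 ± 0.06 (standard error). Other subunits of the same enzyme, ATP5MG and ATP5MC3, rose by 2.29 and 2.21, while ATP5F1E, its epsilon subunit, fell (-1.40), so that the subunits of ATP synthase did not move together on AGO2. Losses were also called for COX7C, of cytochrome c oxidase (-1.71), and NDUFV3, of complex I (-1.75). Mitochondrial ribosomal proteins gave 26 rises and 38 falls among the 75 measured of 76 listed genes (median -0.23; 48 rises and 6 falls with spike-in scaling), from MRPL23 (2.80), MRPS30 (2.40; 1.58 with normexp) and MRPL45 (2.10) down to MRPL54 (-1.85), MRPS17 (-2.02) and MRPS14 (-3.03). MRPS14 lay at 2.67 and 2.64 on the miR-NC arrays and -0.36 and -0.39 on the miR-634 arrays, and MRPL23 at 0.95 and 0.90 on the miR-NC arrays and 3.73 and 3.72 on the miR-634 arrays. Both differences were many times the gap between duplicates. The miR-NC arrays of MRPS30 (-2.89 and -4.08) and of MRPL45 (1.47 and 2.10) were apart, and without the lower of its 2 arrays the change of MRPS30 was 1.81.

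Import and carrier genes of mitochondria were found on both sides with the scaling used here, as were all genes (28.6% rises and 42.6% falls). Import and chaperone genes gave 11 rises and 12 falls among the 33 measured of 36 listed genes (median -0.13; 22 rises and 3 falls with spike-in scaling), with the translocase subunits TIMM17A and TIMM8A at 2.56 and 2.06 (0.24, not passing, on another probe of TIMM8A) and the import receptor TOMM20 at -1.41. TIMM17B, a paralog of TIMM17A, fell (-1.20). Carriers and porins gave 13 rises and 12 falls among the 39 measured of 55 listed genes (median 0.05; 30 rises and 1 fall with spike-in scaling). SLC25A4, the adenine nucleotide carrier of the inner membrane, rose by 2.30 and the glycine carrier gene SLC25A38 by 1.88 (1.12 with normexp), while the uncoupling protein gene UCP3 fell (-1.15). For fusion and fission there were 5 rises and 4 falls among all 16 genes (median 0.06; 14 rises and 0 falls with spike-in scaling), with 4 gains of at least 2-fold (beside 11.4% over all genes), among them MTFR1, a fission regulator (1.82), DNM1L, the dynamin that cuts mitochondria (1.52), and the protease YME1L1 (1.34). For maintenance and transcription of mitochondrial DNA there were 5 rises and 8 falls among all 15 genes (median -0.24; 11 rises and 1 fall with spike-in scaling). Beside TFAM, the RNA polymerase POLRMT rose by 1.59 and the DNA polymerase POLG by 1.34, while SSBP1, which coats single-stranded mitochondrial DNA, fell (-1.17). Iron-sulfur cluster and LYR genes gave 9 rises and 9 falls among the 19 measured of 23 listed genes (median -0.06; 13 rises and 1 fall with spike-in scaling), with the assembly factor ISCA2 at 1.46 and LYRM1 far below the others.

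Most cytosolic ribosomal protein mRNAs fell on AGO2 with the scaling used here. Of 78 measured genes, 57 fell and 12 rose, compared with 42.6% falls and 28.6% rises over all genes. Of these genes 22 were lost and 3 gained at least 2-fold, beside 7.72% and 11.4% of all genes, and the median was -0.72. With spike-in scaling, 16 fell and 32 rose, so that the direction of the list depends on the scaling (median 0.14, beside 0.68 for all genes, since this scaling shifts every gene alike). RPL37A lay at 7.94 and 7.98 on the miR-NC arrays and 4.91 and 4.90 on the miR-634 arrays, a change of -3.06 ± 0.06 (standard error). RPL36 lay at 4.78 and 4.83 on the miR-NC arrays and 2.24 and 1.65 on the miR-634 arrays, a change of -2.86 ± 0.21. RPS26 lay at 7.87 and 7.97 on the miR-NC arrays and 5.17 and 5.11 on the miR-634 arrays, a change of -2.77 ± 0.07 (-1.03 on another probe). In these 3 genes every miR-NC array was above every miR-634 array. They are the largest falls of the list, and the groups did not overlap for 86.7% of all genes. RPS16 was the clearest exception, with a rise of 3.35 from 4.57 and 4.58 to 7.93 and 7.92, followed by RPL41 (2.51) and the paralog RPL7L1 (1.13). Ribosomal protein genes have many processed pseudogenes, so that a probe can take signal from close copies. Translation initiation factors gave 11 rises and 20 falls among the 40 measured of 55 listed genes (median -0.16; 33 rises and 3 falls with spike-in scaling). EIF2B4, a subunit of the exchange factor of eIF2, rose by 2.17 and EIF4E, which binds the mRNA cap, by 2.04, while EIF3B, a scaffold subunit of eIF3, fell (-2.55), as did the helicase gene EIF4A2 (-1.42).

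Replication-dependent histone mRNAs, which end in a stem-loop in place of a poly(A) tail, had the lowest median of all lists. Of 59 measured genes 51 fell and 4 rose, 26 were lost and 4 gained at least 2-fold (28.6% rose, 42.6% fell, 11.4% were gained and 7.72% lost over all genes), and the median was -0.92, while with spike-in scaling 18 fell, 10 rose and the median was -0.06. H3C1 lay at 3.92 and 3.84 on the miR-NC arrays and 0.10 and 0.07 on the miR-634 arrays, and H3C6 at 3.56 and 3.52 on the miR-NC arrays and 0.54 and 0.50 on the miR-634 arrays. H3C12 averaged 1.09 over the miR-NC arrays and -1.34 over the miR-634 arrays, a change of -2.43. Against these falls, the H3 genes H3C3 (1.84), H3C13 (1.69) and H3C15 (1.26) rose. Genes that encode the same histone thus gave opposite calls, and since their coding sequences are close copies the assignment of a probe to a single gene is uncertain. Other genes of the cell cycle were mixed, as were all genes (28.6% rises and 42.6% falls). DNA replication gave 15 rises and 22 falls among the 46 measured of 48 listed genes (median -0.21; 36 rises and 4 falls with spike-in scaling), with POLD2, a subunit of DNA polymerase delta, at 2.83, the ribonucleotide reductase subunit RRM2 at 1.63 (0.88 with normexp), and RFC4, of the clamp loader, at -2.62. RFC2, another clamp loader subunit, rose by 1.55. Spindle and kinetochore genes gave 9 rises and 20 falls among the 38 measured of 41 listed genes (median -0.28; 25 rises and 3 falls with spike-in scaling), with the checkpoint gene BUB3 at 2.26 (0.77 on another probe), its partner BUB1 at -1.70 and CENPH, of the inner kinetochore, at -1.90. Cyclins, CDKs and their inhibitors gave 8 rises and 19 falls among the 33 measured of 36 listed genes (median -0.34; 23 rises and 1 fall with spike-in scaling). CDK9, the kinase that releases paused RNA polymerase II, rose by 2.80, CKS1B by 2.56 and the mitotic cyclin gene CCNB1 by 2.05, while the inhibitor genes CDKN1B (-1.16) and CDKN1C (-1.10; -0.24, not passing, with spike-in scaling) fell. Of the E2F and DP factors with the retinoblastoma family, 9 of 13 genes fell and 2 rose (median -0.49), but 11 rose and 0 fell with spike-in scaling.

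**Figure D4:**
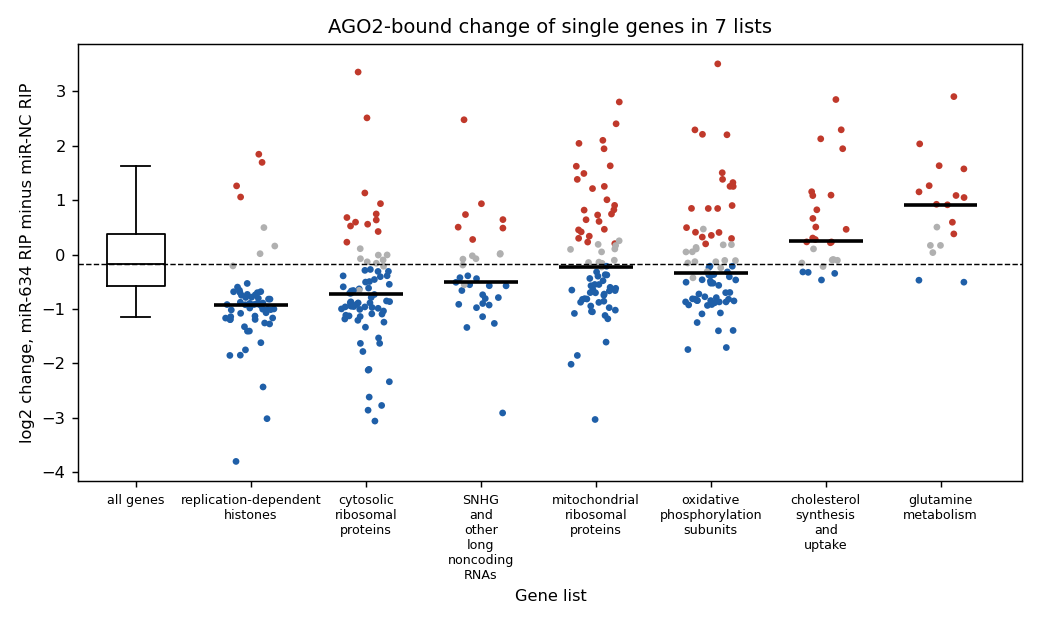
AGO2-bound log2 change of the single genes of 7 lists (red rose, blue fell, gray did not pass), with the list's median as a bar and the median of all genes as a dashed line; the box gives the quartiles and the 5th and 95th percentiles of all 10973 genes. Histones (median -0.92) and cytosolic ribosomal proteins (-0.72) lie lowest and glutamine metabolism (0.92) highest, and with spike-in scaling the ribosomal protein median becomes 0.14 and the histone median -0.06.

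Subunits of the V-ATPase, tetraspanins and RAB GTPases were gained at least 2-fold more often (31.2%, 31.6% and 25.6%) than all genes (11.4%), and lysosomal membrane proteins and hydrolases about as often (12.1%). The V-ATPase, which acidifies lysosomes, gave 9 rises and 6 falls among the 16 measured of 24 listed genes, with 5 gains and 0 losses of at least 2-fold and a median of 0.50 (13 rises and 0 falls with spike-in scaling). After ATP6V0B, the subunits ATP6V1E1 (1.45) and ATP6V1B2 (1.36) rose most, and ATP6V0E2, which was not well above background on the miR-NC arrays, was at least 3.59-fold higher. Such a bound sets the mean of the miR-634 arrays against the lowest signal of a probe well above background on each miR-NC array, or the probe's own signal where that is higher. Lysosomal membrane proteins and hydrolases gave 14 rises and 8 falls among the 33 measured of 35 listed genes (median 0.06; 28 rises and 2 falls with spike-in scaling). CD63, a tetraspanin of late endosomes and exosomes, lay at 2.96 and 3.56 on the miR-NC arrays and 6.57 and 6.53 on the miR-634 arrays, a rise of 3.29 ± 0.22 (standard error). The sulfatase gene IDS rose by 1.77 and the cathepsin gene CTSL by 1.60, while GLA, alpha-galactosidase, fell (-1.84), as did the peptidase gene TPP1 (-1.13). Hydrolases of the same compartment were therefore found on both sides. Of the tetraspanins, 10 of 19 measured genes (of 30 listed) rose and 4 fell (median 0.27; 15 rises and 0 falls with spike-in scaling), with 6 gains of at least 2-fold, among them TSPAN5 (1.67) and TSPAN15 (1.63), which bind the protease ADAM10. The RAB GTPases, which direct vesicles between compartments, gave 19 rises and 13 falls among the 43 measured of 64 listed genes (median 0.12; 36 rises and 2 falls with spike-in scaling), and 11 were gained and 2 lost at least 2-fold. RAB5A, of early endosomes, rose by 2.10, from -2.81 and -2.75 to -0.67 and -0.69, and RAB21 by 2.40. RAB7A, of late endosomes and lysosomes, fell (-1.92), from 3.73 and 3.70 to 1.78 and 1.81, as did RAB9A (-1.56), which acts in transport from late endosomes to the Golgi. Core autophagy genes gave 8 rises and 12 falls among the 27 measured of 33 listed genes (median -0.23; 22 rises and 0 falls with spike-in scaling). These shares of 29.6% rises and 44.4% falls were near the 28.6% and 42.6% over all genes. ATG4A, a protease that processes proteins of the ATG8 family (2.06), ATG101, of the ULK complex (2.05), and ATG7, the enzyme that activates ATG8 proteins (1.75; 0.88 with normexp), rose most, whereas GABARAP, itself an ATG8 protein, fell (-0.92; -0.05, not passing, with spike-in scaling).

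Genes of protein folding and turnover were found on both sides, as were all genes (28.6% rises and 42.6% falls). Few falls of these lists were left with spike-in scaling. Gains of at least 2-fold made up 15.2% of the cytosolic chaperones, 19.6% of the proteasome genes and 6.67% of the ubiquitin enzymes, beside 11.4% of all genes. Cytosolic chaperones gave 13 rises and 10 falls among the 33 measured of 35 listed genes (5 gains, 0 losses, median 0.02; 29 rises and 0 falls with spike-in scaling). CCT7 and CCT8, of the chaperonin that folds actin and tubulin, rose by 2.80 and 2.03, and HSPA8, the constitutive HSP70, by 1.36. Folding genes of the endoplasmic reticulum gave 9 rises and 11 falls among the 25 measured of 30 listed genes (median -0.12; 22 rises and 0 falls with spike-in scaling), with the prolyl isomerases FKBP2 and FKBP9 at 2.02 and 1.68, the chaperone HYOU1 at 1.11 (0.35 with normexp), and the cochaperone DNAJB9 at -0.94 (-0.08, not passing, with spike-in scaling). Proteasome genes gave 19 rises and 17 falls among the 46 measured of 48 listed genes (median -0.06; 38 rises and 1 fall with spike-in scaling), and 9 were gained and 1 lost at least 2-fold. PSMA1 and PSMA2, subunits of the alpha ring, rose by 3.32 and 2.30, whereas PSMA4, of the same ring, fell (-1.31). PSMA1 lay at 2.70 and 2.71 on the miR-NC arrays and 6.10 and 5.95 on the miR-634 arrays and PSMA4 at 2.56 and 2.48 on the miR-NC arrays and 1.24 and 1.18 on the miR-634 arrays, which puts the duplicates of each far closer than the groups. Ubiquitin E2 enzymes and cullin ligases gave 12 rises and 19 falls among the 45 measured of 51 listed genes (median -0.26; 31 rises and 1 fall with spike-in scaling), from UBE2V2 (1.55) and the RING subunit RBX1 (1.31) to the scaffold CUL1 (-1.58). In the UFMylation pathway, 4 of 8 genes rose and 3 fell (median 0.48; 7 rises and 0 falls with spike-in scaling). With UFC1, the ligase adaptor DDRGK1 rose by 2.57 and the protease UFSP2 by 1.36, while UFM1 itself fell (-0.74; 0.12 with spike-in scaling).

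Cholesterol synthesis and uptake gave 16 rises and 4 falls among the 26 measured of 27 listed genes, with 7 gains and 0 losses of at least 2-fold and a median of 0.25, beside 28.6% rises, 42.6% falls and 11.4% gains over all genes. PMVK, phosphomevalonate kinase, lay at -0.60 and -0.58 on the miR-NC arrays and 1.95 and 2.56 on the miR-634 arrays, a rise of 2.85 ± 0.22 (standard error). EBP, a sterol isomerase, rose by 2.29 and FDPS, farnesyl diphosphate synthase, by 2.12. The falls were small, the largest being that of IDI1, isopentenyl diphosphate isomerase (-0.47; 0.40 with spike-in scaling and -0.29, not passing, with the percentile over all probes), and all 26 genes rose with spike-in scaling.

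The proteins that act with miRNAs themselves did not stand out by number. Of the RISC and miRNA processing genes, 5 of 21 measured genes (of 22 listed) rose and 8 fell (median -0.16, beside 28.6% rises and 42.6% falls over all genes), with 2 gains and 0 losses of at least 2-fold, and 19 rose and 0 fell with spike-in scaling. XPO5, which exports miRNA precursors from the nucleus, rose by 1.40, TSNAX, of the C3PO nuclease, by 1.56 and TNRC6B, a GW182 protein that binds Argonaute, by 0.78 (0.15, not passing, with normexp), while AGO1 fell (-0.72; 0.14 with spike-in scaling, and -0.16, not passing, on another probe). Genes of deadenylation, decapping and decay gave 10 rises and 18 falls among the 42 measured of 45 listed genes (median -0.17; 31 rises and 3 falls with spike-in scaling). Within the LSM ring, LSM5 rose by 2.47, from 1.31 and 1.31 to 3.86 and 3.70, whereas LSM7 fell (-2.80), from 5.08 and 5.07 to 2.31 and 2.24, beside LSM3. The deadenylase gene CNOT8 rose by 1.97 and the decay endonuclease gene SMG6 by 1.79 (1.01 and 0.49 with normexp), the decapping gene DCP1B fell (-1.36), and CNOT9, which had no probe well above background on the miR-NC arrays, was at least 3.19-fold higher.

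Targets of other miRNAs were examined because a mimic can displace them from AGO2. Targets of let-7 gave 7 rises and 5 falls among the 18 measured of 25 listed genes (median 0.02), targets of miR-21 3 rises and 7 falls among the 12 measured of 17 listed genes (median -0.34) and targets of the miR-200 family 1 rise and 4 falls among the 10 measured of 16 listed genes (median -0.31). Of the targets of the miR-17 family, 12 of 18 measured genes (of 20 listed) fell and 3 rose (median -0.48), a larger share of falls than the 42.6% over all genes. Rises made up 28.6% over all genes. With spike-in scaling, rises and falls numbered 13 and 0 for let-7, 8 and 1 for miR-21, 7 and 0 for miR-200 and 14 and 1 for miR-17, so that the direction of the last 3 lists depends on the scaling. Single targets with larger changes were RRM2 (1.63; 0.88 with normexp) and CDC34 (1.08) for let-7, TPM1 (1.22) and SPRY1 (-1.59) for miR-21, ERRFI1 (1.24) and FHOD1 (-0.98; -0.11, not passing, with spike-in scaling) for miR-200, and MAPK9 (1.53; 0.93 with normexp) and TXNIP (-1.21) for miR-17. TXNIP, which binds thioredoxin, lay at -0.52 and -0.51 on the miR-NC arrays and -1.64 and -1.82 on the miR-634 arrays, and SPRY1, an inhibitor of growth factor signalling, averaged -0.44 and -2.02 over the same arrays. The groups did not overlap for either gene, as they did not for 86.7% of all genes. Displacement itself was not tested.

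Epidermal growth factor signalling, whose receptor A431 cells are known to carry at a high level, was split with the scaling used here. Of the EGFR family, its ligands and the RAS-ERK-PI3K pathway, 14 of 33 measured genes (of 42 listed) rose and 11 fell (median 0.01; 28 rises and 0 falls with spike-in scaling), beside 28.6% rises and 42.6% falls over all genes. The ligand gene HBEGF lay at -2.28 and -2.07 on the miR-NC arrays and -0.35 and -0.30 on the miR-634 arrays, a rise of 1.85 ± 0.09 (standard error). The receptor gene ERBB2 rose by 1.49 and ERRFI1, an inhibitor of EGFR, by 1.24, while the ligand gene BTC fell (-1.06; -0.19, not passing, with spike-in scaling). PIK3CB, a catalytic subunit of PI3K, was at least 3.20-fold higher, with no probe well above background on the miR-NC arrays. SRC family kinases with their regulator gave 5 rises among the 5 measured of 11 listed genes (median 0.61; also 5 rises and 0 falls with spike-in scaling), none of at least 2-fold, with CSK, which inactivates SRC, at 0.98, FYN at 0.67 and YES1 at 0.61, of which FYN did not pass with normexp (0.11). Integrins, laminins and adhesion genes gave 6 rises and 1 fall among the 20 measured of 22 listed genes (median 0.13; 20 rises and 0 falls with spike-in scaling), with ITGA3, the alpha 3 integrin of keratinocytes, at 0.99. This list had 0 gains and 0 losses of at least 2-fold. Keratins gave 8 rises and 8 falls among the 25 measured of 55 listed genes (median -0.05; 22 rises and 1 fall with spike-in scaling), with the wound keratin gene KRT16 at 1.33 and KRT18, of simple epithelia, at -2.06, although keratin genes have close copies. Keratinocyte cytokines gave 5 rises and 7 falls among the 17 measured of 27 listed genes (median 0.00; 14 rises and 0 falls with spike-in scaling), with IL36G at 1.16, IL11 at 1.12 (0.46 with normexp) and the growth factor gene PDGFA at -1.10 (-0.23, not passing, with spike-in scaling). In the Mediator complex, 9 of 26 measured genes (of 33 listed) rose and 12 fell (median -0.16; 22 rises and 2 falls with spike-in scaling), with MED18 (2.33) and MED22 (2.07, and 0.62 on another probe) beside MED30 on one side and MED4 (-1.25) and MED21 (-1.25) on the other.

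Noncoding RNAs were lost from AGO2 more often than mRNAs. Of 820 genes whose probe has an RNA accession of the noncoding class, 116 (14.1%) rose and 471 (57.4%) fell, with a median of -0.45, compared with 3023 (29.8%) rises and 4207 (41.5%) falls of 10149 mRNAs and a median of -0.15. With spike-in scaling 452 noncoding RNAs rose and 74 fell (median 0.41), beside 7652 rises and 435 falls of mRNAs (median 0.71). With quantile normalization 145 noncoding RNAs rose and 369 fell (median -0.27), beside 3287 rises and 3673 falls of mRNAs (median -0.05). Losses of at least 2-fold were called for 126 noncoding RNAs (15.4%) and gains for 39 (4.76%), beside 721 losses (7.10%) and 1213 gains among the mRNAs. In the list of SNHG and other long noncoding RNAs, 7 of 33 measured genes (of 51 listed) rose and 19 fell (median -0.51; 20 rises and 3 falls with spike-in scaling). DANCR, which restrains differentiation of progenitor cells, lay at 0.89 and 0.89 on the miR-NC arrays and 3.36 and 3.37 on the miR-634 arrays, a rise of 2.48 ± 0.06 (standard error). MIR31HG, the host gene of miR-31, lay at 0.09 and 0.17 on the miR-NC arrays and -2.76 and -2.80 on the miR-634 arrays, a change of -2.91 ± 0.06. RMRP, the RNA of the RNase MRP ribonucleoprotein, was at -1.10 and -0.99 on the miR-NC arrays and -2.69 and -2.09 on the miR-634 arrays, a change of -1.34. The changes of DANCR, MIR31HG and RMRP were each larger than the spread between duplicates, but another probe of MIR31HG gave -0.70 and RMRP did not pass with spike-in scaling (-0.48). SNHG6 fell as well (-1.27), and MIR22HG had probes with opposite calls.

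The study also measured proteins in A431 cells after miR-634, and the genes of its list of lower proteins were examined on AGO2. Of 428 such genes 367 were measured, of which 43.3% rose and 31.6% fell (28.6% and 42.6% over all genes), and 78 were gained and 11 lost at least 2-fold. Their median change was 0.11, beside -0.18 for all genes, and 21.3% of them were gained at least 2-fold, beside 11.4% over all genes. With spike-in scaling 297 of them rose and 7 fell, with a median of 0.97 beside 0.68 for all genes. The list comes from the same study and cells, although from another assay. After ATP5F1B and CD63, the largest rise was that of AK3, a mitochondrial adenylate kinase, from -0.15 and -0.16 to 3.06 and 2.96 (3.17). The largest falls were those of MALSU1, an assembly factor of the mitochondrial ribosome (-1.87), FIP1L1, of the polyadenylation machinery (-1.55), and NSMCE1, of the SMC5/6 complex (-1.42). In the input, 42 of these genes rose and 111 fell, beside 17.7% and 16.4% of all genes.

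**Figure D5:**
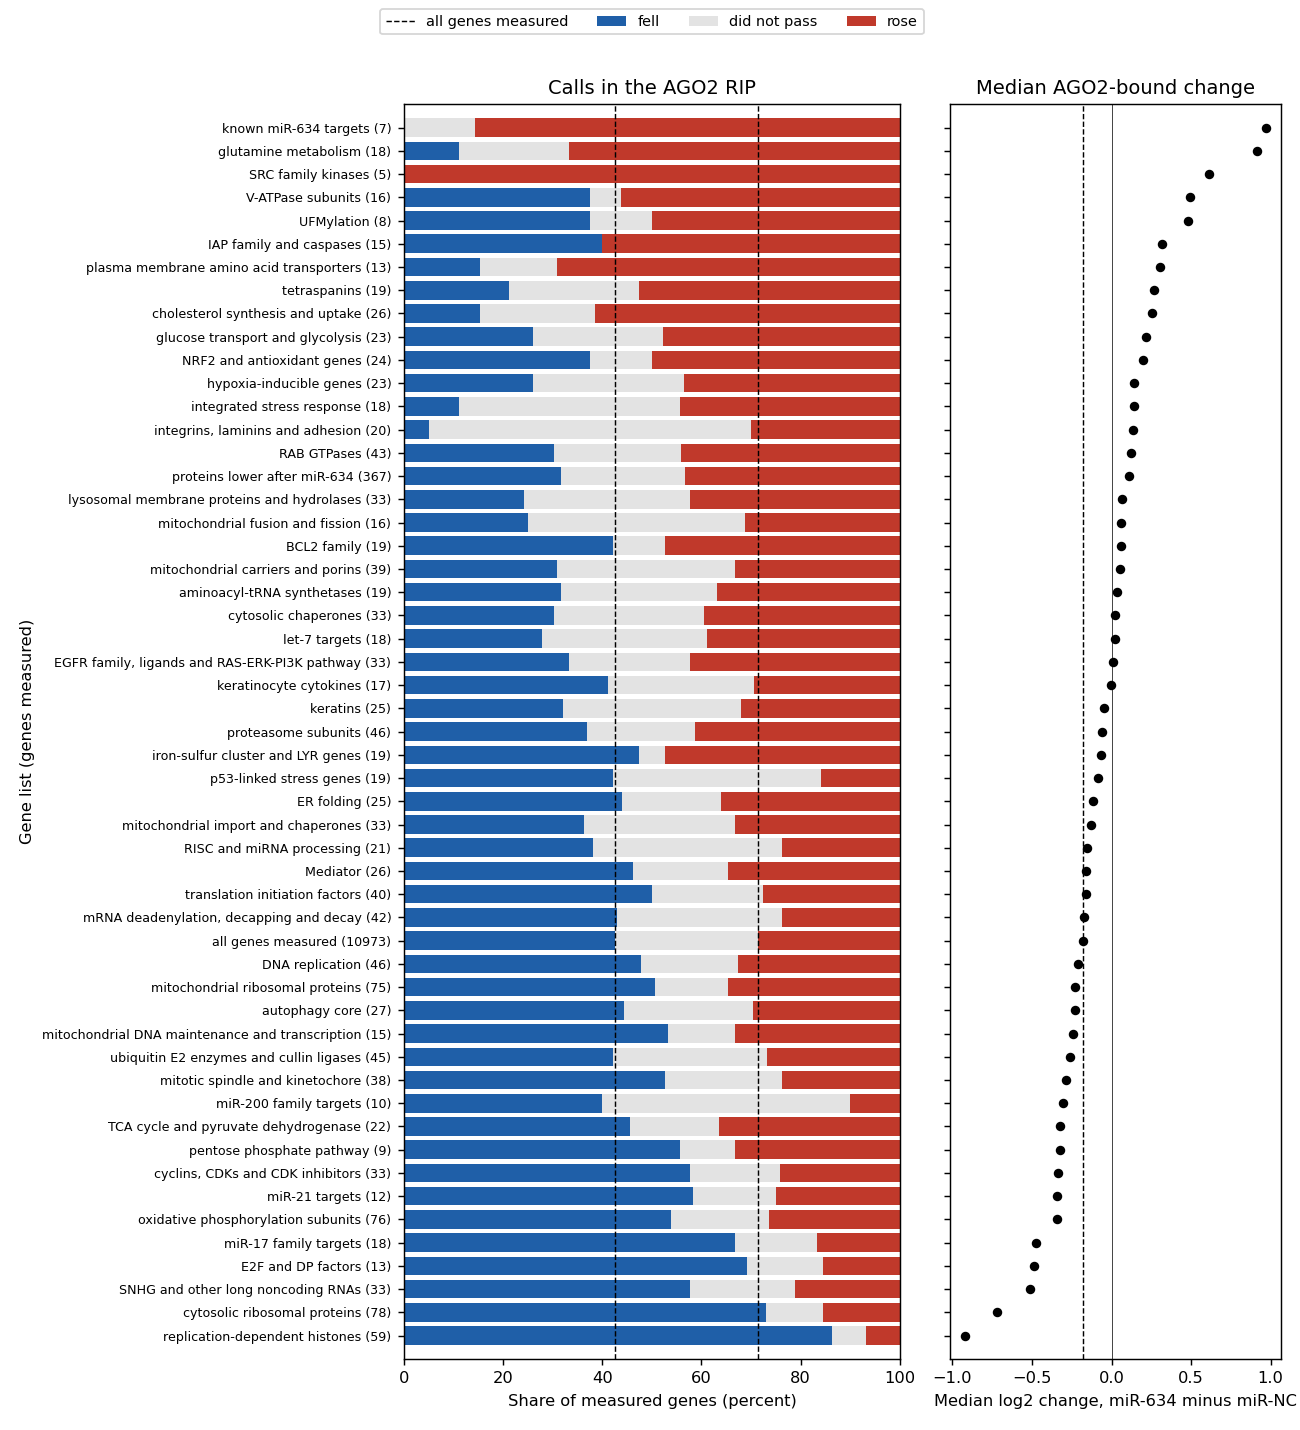
Share of measured genes of each list that fell (blue), did not pass (gray) or rose (red) on AGO2 (left) and the list's median log2 change (right), ordered by the median, with dashed lines for all 10973 genes. Known miR-634 targets and glutamine metabolism have the highest medians (0.97 and 0.92) and histones the lowest (-0.92), whereas with spike-in scaling the medians of all lists but that of the histones (-0.06) lie above 0.

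Gained genes were often lower in the input. Of the 1250 gained genes with an input value, 530 (42.4%) fell and 93 (7.44%) rose in the input, compared with 16.4% and 17.7% of all genes, and their median input change was -0.14. Of the 842 lost genes with an input value, 158 (18.8%) fell and 144 (17.1%) rose, which is near the share of all genes. Changes in the input were far smaller than on AGO2, with an SD across genes of 0.25 against 0.86. The input fell by at least 2-fold for 20 of the 1250 gained and 2 of the 842 lost genes, beside 40 of all 10958 genes. Over 10958 genes, which do not count as replicates, the change on AGO2 and that in the input were weakly and inversely related (Pearson r = -0.218, Spearman rho = -0.133). The RIP and the input arrays are separate hybridizations, but both stem from cells given the same miRNAs and may share transfections. The log2 change in the input was -0.27 for MED30, -0.20 for TMEM18 and -0.51 for UFC1 (adjusted p = 0.0139, 0.0214 and 0.0026 by limma), against rises of more than 4 on AGO2.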

How the data were processed

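The authors deposited the intensity of every spot of each array, read from a one-color scan and corrected within the array for local background and spatial trend. The file headers name Agilent Feature Extraction 12.0.1.1, and the submitters' processing notes version 9.1. A second table that the authors deposited holds log2 values processed with GeneSpring and served here as an alternative. Its scale, centring and direction were found by setting it against the scanner values: over 16808 probes each column had a Pearson r of 1.00 with log2 intensity minus the 75th percentile of all probes and then minus the probe's median over the 8 arrays. The medians of its columns were -0.44 and -0.38 for the miR-NC input, 0.87 and 0.86 for the miR-NC RIP, -0.42 and -0.39 for the miR-634 input and 0.36 and 0.32 for the miR-634 RIP.

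After removal of control and outlier spots, repeated spots of each probe were averaged and log2-transformed; there were no saturated spots. From each RIP array its 75th percentile was subtracted, taken over the 16834 of 58186 probes (28.9%) with a signal well above background in the 4 RIP samples. Of the 58186 probes, 33073 carried a RefSeq accession and 31098 were matched, without versions, to 1 symbol each of the RefSeq gene table of GRCh38.p14, for 22435 symbols, and 27088 had no symbol. The brightest passing probe stood for a gene. Among 2227 genes with several passing probes, 116 (5.21%) had probes with opposite calls. Changes were tested with limma 3.58.1 (lmFit, eBayes) in R 4.3.3 on the 4 RIP arrays, with Benjamini-Hochberg adjustment, and gains and losses also had to reach 2-fold. The input was tested in the same way on its own 4 arrays. The test was run on simulated data. Precision is limited by the number of arrays.

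Members and lists were chosen with earlier results of these data known. The 305 named genes are the 12 largest rises and falls that passed without overlap, the known targets, the 3 largest rises and falls of each of 52 lists and members the paper names, the 5 largest rises and falls of noncoding RNAs and the 5 largest bounds in each direction, and changes of 191 of them are given. Some results are not reported here. ATP6V0E2, CNOT9 and PIK3CB were named after their values were seen. Alternatives were other scalings, normexp (offset 50, on the median signal), filters, the mean of the probes, variance models, a replicate block, the methods' t-test and each array left out. No slide block could be fitted on 1 slide. Python 3.11.15 (pandas 2.3.3, matplotlib 3.10.9) was used for tables and plots.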

Additional observations from a re-analysis of the deposited data

Results flagged for a closer look

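Some genes outside the comparison, which had no probe well above background on all 4 RIP arrays, showed a signal in only 1 of the groups. A probe was well above background on both miR-634 RIP arrays and on neither miR-NC RIP array for 950 genes, of which 90 had a bound of at least 2-fold higher and 13 of at least 4-fold. In the other direction there were 18 genes, all 18 with a bound of at least 2-fold lower and 8 of at least 4-fold. These counts also follow the larger share of spots well above background on the miR-634 RIP arrays, and the part of this share in them was not tested. Both the counts and the bounds hold for the scaling used here. Spike-in scaling moves every change upward by 0.86, which would lower the bounds of losses and raise those of gains.

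The highest lower bounds were those of ZNF419, a zinc finger gene (at least 6.68-fold higher), TMEM270 (6.52), ADPRM, an ADP-ribose phosphatase (6.12), TMEM200B (6.02) and TEX19, a gene of germ cells (6.02). ZNF419 lay at -2.54 and -2.40 on the miR-634 arrays and, not well above background, at -5.33 and -5.31 on the miR-NC arrays. Among the losses, LINC02551 was at least 11.7-fold lower, COQ7-DT 8.88-fold, TNFRSF11B, the decoy receptor osteoprotegerin, 7.90-fold, ARHGEF3-AS1 7.03-fold and PABIR3 6.49-fold. TNFRSF11B lay at -3.41 and -3.27 on the miR-NC arrays and at -6.46 and -6.89 on the miR-634 arrays, whereas the miR-NC arrays were far apart for ARHGEF3-AS1 (-2.10 and -4.92), PABIR3 (-2.52 and -4.63) and LINC02551 (-2.20 and -3.36), whose bounds therefore depend on single arrays.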

How the results depend on the processing

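Scaling and the filter moved the counts most. With spike-in scaling 8107 genes rose and 509 fell, 3755 were gained and 104 lost at least 2-fold, and the median change of all genes turned from -0.18 to 0.68. With the percentile over all probes 496 genes were lost at least 2-fold and the median was -0.0051, and with the authors' processed values these were 497 and -0.0060. The median was -0.0792 with quantile normalization and -0.32 with normexp. Without a filter on dim probes 9794 genes fell, 6266 were lost at least 2-fold and the median was -0.51, over 22435 genes that include probes near background. A cutoff of 1.5 on the log2 scale left 649 gains and 220 losses. The methods' t-test, which is given there under general statistics and not for RIP-chip, called 3101 falls and 2427 rises after Benjamini-Hochberg adjustment. At its unadjusted threshold it called 3885 falls and 2828 rises. Counts under median scaling, the filter on all 8 arrays, the mean of the probes, the intensity trend and the fit over all 8 arrays were within 1.5 times those reported.

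Without either miR-634 array FAS, LAMP2 and XIAP no longer passed, and without the miR-NC array numbered 1 XIAP did not. Leaving out each array in turn gave 2713 to 3008 rises, 3923 to 4337 falls, 1227 to 1265 gains, 855 to 904 losses and medians of -0.18 to -0.17; the lone array left in a group is then assumed to vary like the others. Whether arrays with the same replicate number were handled together is not stated. Their deviations from the group means had a correlation of 0.0388 over genes, which cannot settle this. With a replicate block there were 3083 rises, 4603 falls, 1253 gains and 851 losses, the median was -0.18, and of the genes whose change is given only the call of OPA1 differed, which then passed.

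Of these 191 genes, 5 changed direction with spike-in scaling, AGO1 (0.14), CTPS2 (0.36), GOT2 (0.39), IDI1 (0.40) and UFM1 (0.12), OPA1 passed, and BCL2L11, BTC, CASP10, CDKN1C, CEBPB, DIABLO, DNAJB9, FAS, FHOD1, GABARAP, PDGFA, RMRP and SLC6A6 no longer passed. With the mean of the probes CASP10 changed direction (0.40) and CTPS2 and DIABLO no longer passed. With normexp FYN, TNRC6B and XIAP no longer passed, and the fold of 18 genes moved by more than 1.5 times. Without a filter LAMP2 and XIAP no longer passed, and with the percentile over all probes or the authors' values IDI1 did not, while OPA1 did. Where a cause is not given here, it was not tested.

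Falls on AGO2 are the less certain direction, since their number depends on the scaling, and amounts of spike-in RNA are not given. Experiments were done in duplicate, but separate transfections are not stated, and slide position and treatment cannot be told apart. The counts depend on whether probes near background are kept, and probes of close copies can share signal.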

Other observations

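Several families outside the lists, grouped by the stem of the gene symbol and chosen after their values were seen, lay apart from the median of all genes (-0.18, with 28.6% rises and 42.6% falls). Small nucleolar RNAs, which guide the modification of ribosomal RNA, were mostly lower on AGO2 after miR-634. Of 42 SNORA genes, whose RNAs guide pseudouridylation, 33 fell and 2 rose, with a median of -0.83, while with spike-in scaling 15 rose, 4 fell and the median was 0.03. With quantile normalization 24 fell, 3 rose and the median was -0.45, beside -0.08 for all genes. Of 26 SNORD genes, whose RNAs guide methylation, 17 fell and 3 rose (median -0.63), and with spike-in scaling 12 rose and 1 fell. With quantile normalization 14 SNORD genes fell and 4 rose (median -0.33). Their probes can also take signal from the host transcripts in whose introns these RNAs lie. Keratin-associated proteins gave 13 falls and 1 rise among 22 KRTAP genes (median -0.50). There were 12 rises and 3 falls with spike-in scaling, and 3 rises and 11 falls with quantile normalization (median -0.32).

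Other families lay above the median of all genes. Nucleoporins named NUP, which build the nuclear pore, gave 12 rises and 5 falls among 23 genes, with a median of 0.38 (22 rises and 0 falls with spike-in scaling, where the median of all genes was 0.68). TBC domain genes, most of which encode activators of RAB GTPase hydrolysis, gave 10 rises and 1 fall among 22 (median 0.23; 21 rises and 0 falls with spike-in scaling). Solute carriers outside the lists gave 61 rises and 39 falls among 146 SLC genes, and 23 were gained and 7 lost at least 2-fold (15.8% and 4.79%, beside 11.4% and 7.72% over all genes; median 0.13; 124 rises and 3 falls with spike-in scaling).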
